A study of Mus musculus and Homo sapiens
Mus musculus with 14 samples.

Results

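A set of 10 genes that cones use to turn light into a change of membrane voltage were followed through every retinal library of a Light-Seq experiment, in which RNA is copied into cDNA inside a fixed section and barcodes are attached by light only where a photomask is lit. The genes were chosen by name, with earlier results of these data known. All 10 were listed among the 24460 genes of the retinal layer table and among the 18415 genes of the amacrine cell table. Neural retinas came from wild-type CD1 IGS mice in the third postnatal week, and no animal was treated. In each of 4 sections of the same animal, hand-drawn masks barcoded the outer nuclear layer (ONL, the cell bodies of rods and cones), the layer of bipolar cells (BCL, with Müller glia and horizontal cells among them) and the layer of ganglion cells (GCL, which also holds displaced amacrine cells). In each of 5 further sections, masks barcoded amacrine cells that stained for tyrosine hydroxylase (TH+) and neighbouring amacrine cells that did not (TH-). The masks of the TH+ cells, only a few per section, were drawn inside the cell outline. The methods speak of a single source animal for the Light-Seq experiments, so sections and not animals are the replicates, and p-values measure the spread between sections.

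Cones work in daylight and sit among a far larger number of rods in the mouse retina. Light absorbed by a cone opsin activates the cone transducin, whose alpha subunit switches on a phosphodiesterase. The phosphodiesterase lowers cyclic GMP, a cyclic nucleotide-gated channel closes, and arrestin and a receptor kinase shut the opsin off again. Mouse cones make a short-wave opsin (Opn1sw), a middle-wave opsin (Opn1mw) or both, in proportions that change from the dorsal to the ventral retina. Rods use a parallel set of proteins from other genes, and Gnb3, the beta subunit of cone transducin, is also known from ON bipolar cells.

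The 10 genes lie on 7 chromosomes of the GRCm39 assembly, and all are annotated as protein coding. Opn1sw spans chr6:29376670-29388467 on the minus strand and Opn1mw chrX:73171070-73194366 on the plus strand, so that the short-wave gene is autosomal and the middle-wave gene X-linked. The start regions of both opsins, of the transducin alpha subunit Gnat2 and of the cone arrestin Arr3 are printed here because these genes shared their highest level in the ONL and differed in the motifs the windows hold. Each line is the RefSeq window from 250 bases before to 50 bases after the annotated start, in GRCm38.p6 and in the direction of the gene, and capitals mark TAATC or its reverse complement GATTA, the core bound by OTX and CRX homeodomain factors.
Opn1sw, chr6:29380464-29380763, minus strand: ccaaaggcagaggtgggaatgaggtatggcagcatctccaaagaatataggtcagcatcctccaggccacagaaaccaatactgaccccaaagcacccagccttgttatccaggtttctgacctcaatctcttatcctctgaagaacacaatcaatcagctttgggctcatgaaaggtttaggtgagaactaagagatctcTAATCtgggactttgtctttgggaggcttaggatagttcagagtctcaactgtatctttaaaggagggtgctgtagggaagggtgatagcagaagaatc
Opn1mw, chrX:74127216-74127515, plus strand: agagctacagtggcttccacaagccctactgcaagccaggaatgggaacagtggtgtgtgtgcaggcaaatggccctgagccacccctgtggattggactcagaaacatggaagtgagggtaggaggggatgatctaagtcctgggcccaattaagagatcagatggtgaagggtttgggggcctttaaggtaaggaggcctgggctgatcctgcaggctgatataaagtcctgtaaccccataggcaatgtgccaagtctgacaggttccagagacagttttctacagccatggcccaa
Gnat2, chr3:108092816-108093115, plus strand: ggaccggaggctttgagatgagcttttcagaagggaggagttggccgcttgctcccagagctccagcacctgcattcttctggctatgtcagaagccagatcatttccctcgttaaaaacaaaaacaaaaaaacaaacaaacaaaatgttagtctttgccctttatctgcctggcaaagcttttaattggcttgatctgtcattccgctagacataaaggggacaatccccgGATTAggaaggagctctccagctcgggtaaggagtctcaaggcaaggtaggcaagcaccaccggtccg
Arr3, chrX:100605247-100605546, plus strand: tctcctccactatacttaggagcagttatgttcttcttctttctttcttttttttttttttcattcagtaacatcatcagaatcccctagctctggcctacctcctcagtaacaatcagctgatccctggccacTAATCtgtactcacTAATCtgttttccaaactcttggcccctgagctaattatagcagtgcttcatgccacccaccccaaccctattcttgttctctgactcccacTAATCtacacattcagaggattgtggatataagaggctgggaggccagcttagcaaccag

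Windows were matched for 6 of the 10 genes, the other matches being Cnga3 and Pde6h, and none was used for Cngb3, Gngt2, Gnb3 and Pde6c. TAATCC, the homeodomain core with its last base, occurred on either strand in Gnat2 alone, against 7.06% of 32851 windows in the table. The shorter TAATC, chosen after the windows had been read, occurred 3 times in Arr3, once in Gnat2 and once in Opn1sw, against 22.0% of windows. AGGTCA, a nuclear receptor half-site, occurred at 2 places in Opn1sw (16.3% of windows) and TGCTGA, the NRL or MAF half-site, at 1 place there (19.5% of windows), where its reverse complement overlaps an AGGTCA. The Opn1mw window held none of these letters. A match describes the letters of the window and not a bound site.

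Layer libraries held 193869 to 801105 UMIs (unique molecular identifiers, which count each cDNA copy once), with 310228 to 801105 in the ONL, 193869 to 208437 in the BCL and 585655 to 785013 in the GCL. Levels are given as CPM, each count scaled to a library of 1000000 UMIs, so that 3 UMIs, the limit used here for a gene with none, correspond to 1.32 CPM over the ONL libraries together, 3.74 over the BCL and 1.12 over the GCL. The labels of the layers were checked against marker lists. The 12 rod markers summed to 73902 ± 6285 CPM in ONL, 18061 ± 4120 in BCL and 6860 ± 1719 in GCL libraries (mean ± SD, n = 4 sections), so rod RNA was present in every layer library. The 8 ON bipolar markers summed to 6463 ± 348 CPM in the BCL against 647 ± 125 in the ONL, and the 7 ganglion markers to 4916 ± 236 CPM in the GCL against 369 ± 146 in the ONL. The 5 Müller glia markers and the 4 horizontal cell markers were highest in the BCL (6696 ± 298 and 322 ± 75.2 CPM), the 6 amacrine markers in the GCL (1079 ± 80.1 CPM) and the 4 pigment epithelium markers in the ONL (156 ± 16.6 CPM), with every marker detected in every layer. In these pooled regions, fewer cells of a type and less RNA per cell cannot be told apart.

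Together the 10 genes gave 5065 UMIs in ONL, 424 in BCL and 372 in GCL libraries. Their summed level was 2136, 2603, 2481 and 1241 CPM in ONL sections 1 to 4. The BCL libraries gave 526, 585, 574 and 430 CPM and the GCL libraries 112, 154, 155 and 137 CPM, so that no 2 layers overlapped. In the 3T3 fibroblasts of the same study, a culture that should lack these transcripts, the 10 genes held 2 of 540880 UMIs, 1 of Opn1sw and 1 of Gnb3.

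**Figure D1:**
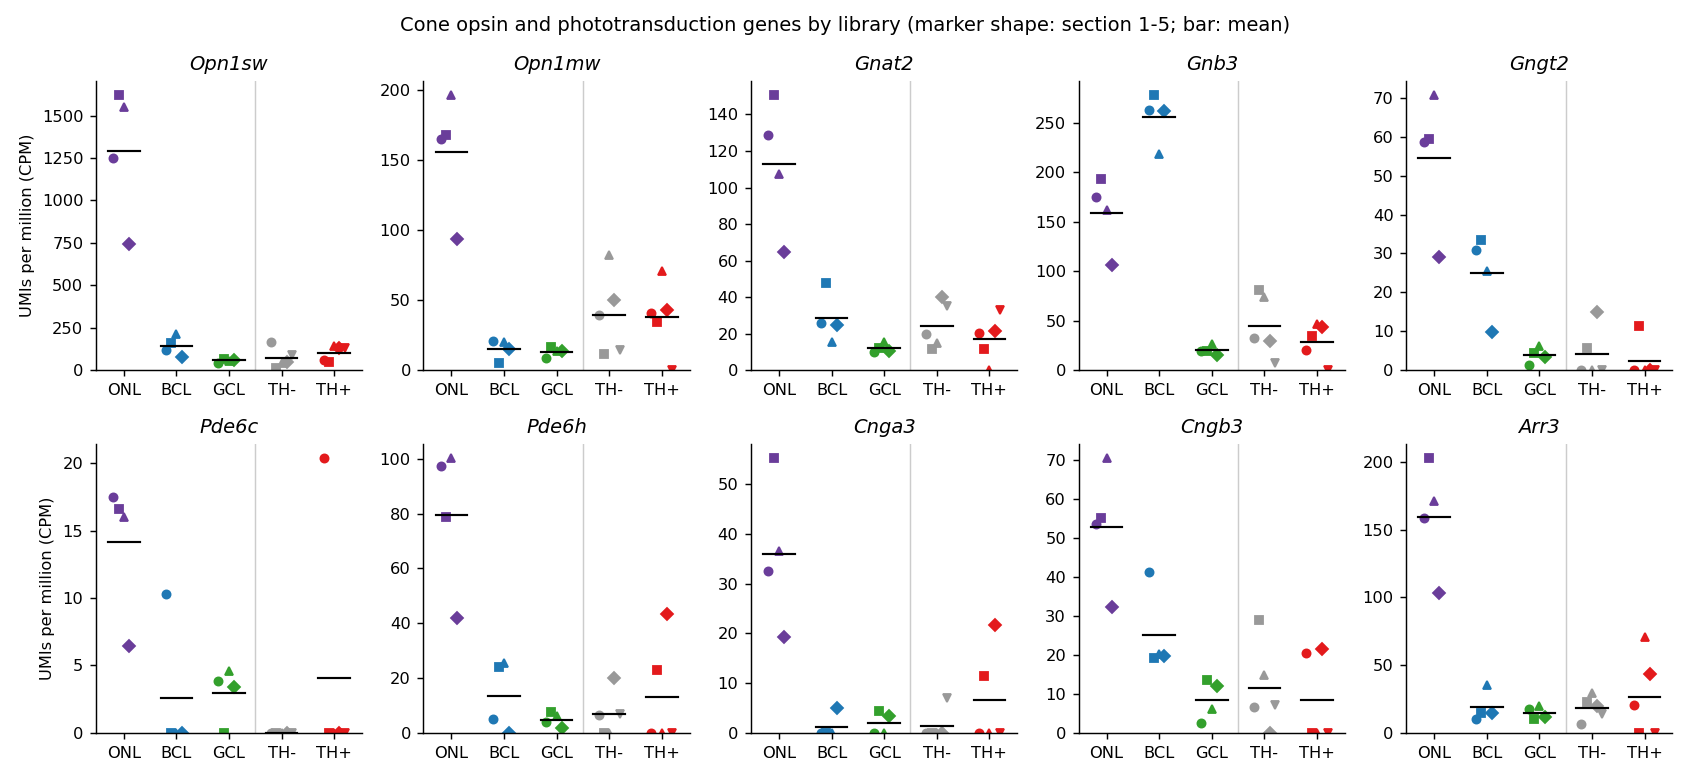
Level of each gene in every library, in CPM (vertical axis, from 0, its own scale for each gene), for the 4 ONL, 4 BCL and 4 GCL libraries and, right of the grey line, the 5 TH- and 5 TH+ libraries; marker shapes stand for sections and bars for group means. The ONL is highest for 9 genes, Gnb3 is highest in the BCL (mean 255 CPM), and the diamond of section 4 is the lowest ONL point of every gene.

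Of the 10 genes, 9 were higher in the ONL than in the BCL by the quasi-likelihood test of edgeR, adjusted after Benjamini and Hochberg over 11324 genes, where 18.5% of all genes tested were called higher in the ONL. The tenth, Gnb3, was not called (log2 fold change -0.28 ± 0.15 SE, adjusted p = 0.152). Against the GCL all 10 were higher in the ONL, where 29.3% of all genes were. The median log2 fold change over the 10 was 2.86 against the BCL and 3.67 against the GCL, compared with 0.09 and 0.0041 over all genes tested. Between the lower layers, 4 of the 10 were higher in the BCL than in the GCL (16.1% of all genes) and 0 were higher in the GCL (20.4% of all genes), with a median of 1.13 against -0.02 over all genes. In this last comparison 5 of the 10 had an unadjusted p under 0.05, and DESeq2 likewise called 4 up and 0 down. Cnga3 and Pde6c passed the filter on low counts through their ONL libraries, with 1 and 2 UMIs in the BCL and 5 and 8 in the GCL. Under the default filter of edgeR neither was tested. Of the remaining 8 genes, 7 were then higher in the ONL than in the BCL (1871 of 7956 genes). Against the GCL 8 were higher in the ONL (2813 genes), and 5 were higher in the BCL than in the GCL (1788 genes).

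Opn1sw gave 60.9% and Opn1mw 7.27% of the UMIs of the 10 genes in the ONL. Opn1sw, the short-wave opsin, stood at 1250, 1623, 1550 and 745 CPM in ONL sections 1 to 4, at 119, 163, 213 and 79.1 CPM in the BCL and at 44.6, 65.9, 56.9 and 61.5 CPM in the GCL. The 3 layers did not overlap, and the ONL level exceeded the BCL by a log2 fold change of 3.52 ± 0.20 (SE, adjusted p = 3.28e-21) and the GCL by 4.68 ± 0.19 (adjusted p = 3.56e-28), the latter the largest of the 10 in that comparison. Opn1sw was also higher in the BCL than in the GCL (1.17 ± 0.27, adjusted p = 0.000468). Opn1mw, the middle-wave opsin, stood at 165, 167, 196 and 93.5 CPM in the ONL, from 4.80 to 20.6 CPM in the BCL and from 8.92 to 16.5 CPM in the GCL. Its ONL libraries lay above all others, by 3.73 ± 0.31 against the BCL (adjusted p = 7.44e-15) and 3.76 ± 0.22 against the GCL (adjusted p = 2.77e-21). Between BCL and GCL the difference was 0.03 ± 0.51 (adjusted p = 0.970) and rested on 12 and 35 UMIs.

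Within each ONL library the balance of the opsins was steady. Sections 1 to 4 held 1001, 1173, 679 and 231 UMIs of Opn1sw beside 132, 121, 86 and 29 UMIs of Opn1mw. The ratio of short- to middle-wave opsin was thus 7.58, 9.69, 7.90 and 7.97. As a share of the opsin UMIs, Opn1sw made up 88.3% in section 1 (95% exact Clopper-Pearson interval 86.3 to 90.2%), 90.6% in section 2 (88.9 to 92.2%), 88.8% in section 3 (86.3 to 90.9%) and 88.8% in section 4 (84.4 to 92.4%). The intervals overlapped throughout, although the total opsin level of section 4 was the lowest. The mean share was 89.2 ± 1.02% (SD, n = 4 sections). None of the 6 pairs of sections differed by two-sided Fisher's exact tests of the UMIs, which compare libraries and cover counting error only (lowest unadjusted p = 0.0721, between sections 1 and 2, adjusted over the 6 pairs 0.433). That pair had a ratio 1.28 times higher in section 2. Random primers give a longer transcript more cDNA, and the gene model of Opn1sw (2557 exonic bases) is longer than that of Opn1mw (1562). A gene model joins all annotated exons and need not match the length of the transcript expressed. Divided by gene model length, the mean ratio was 5.06 ± 0.58 instead of 8.28 ± 0.95.

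The balance was compared with the other layers after the data had been seen. Opn1sw made up 85.2, 97.1, 91.3 and 84.2% of opsin UMIs in BCL sections 1 to 4, which rested on 19 to 46 opsin UMIs a library, with a mean of 89.5 ± 6.01%. The BCL shares lay on either side of those of the ONL (exact permutation p = 0.971, two-sided). In the GCL the shares were 83.3, 80.0, 80.4 and 81.8%, from 42 to 55 opsin UMIs a library, with a mean of 81.4 ± 1.51%. All 4 GCL shares lay below all 4 ONL shares, the exact permutation p was 0.0286, two-sided, the smallest that 4 against 4 sections can give, and adjusted over the 2 comparisons it was 0.0571, which misses 0.05. Flipping layers within a section gave p = 0.125 by the exact permutation test, the smallest that 4 pairs allow. Summed over sections, the ratio was 9.58 in the BCL (5.28 to 19.1) and 4.34 in the GCL (2.99 to 6.46) beside 8.38 in the ONL (7.52 to 9.36). The GCL interval lay below that of the ONL, but these intervals cover counting error only and not the spread between sections.

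**Figure D2:**
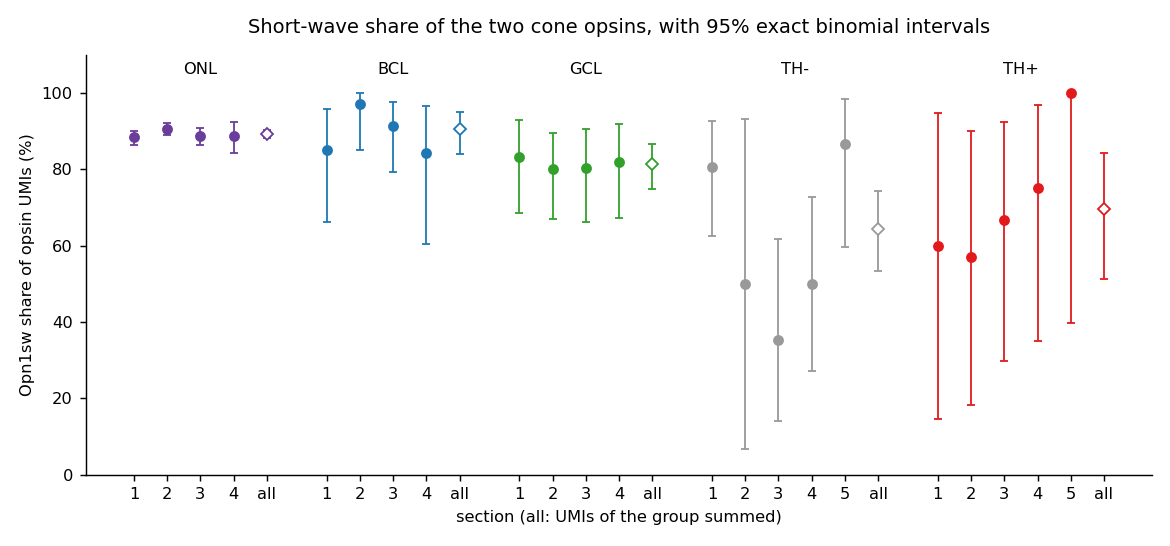
Short-wave opsin share of the opsin UMIs in percent (vertical axis) for each section of the 5 groups, with 95% exact binomial intervals; open diamonds are the summed UMIs of a group. The ONL sections lie between 88.3 and 90.6%, the GCL sections between 80.0 and 83.3%, and the amacrine libraries, with 4 to 31 opsin UMIs each, range from 35.3 to 86.7% apart from TH+ section 5, where no Opn1mw UMI was found.

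The transducin subunits differed among themselves. Gnat2, the alpha subunit that binds GTP, stood at 129, 151, 107 and 64.5 CPM in the ONL, 25.8, 48.0, 15.2 and 24.7 CPM in the BCL and 10.2, 11.99, 15.4 and 10.2 CPM in the GCL. The ONL lay above the BCL by 2.39 ± 0.29 (adjusted p = 1.07e-09) and above the GCL by 3.48 ± 0.25 (adjusted p = 4.36e-18), with no overlap. The BCL exceeded the GCL by 1.08 ± 0.45 with an adjusted p of 0.0516, which became 0.0270 with the section as a block.

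Gngt2, the gamma subunit, stood at 58.7, 59.5, 70.8 and 29.0 CPM in the ONL and at 30.9, 33.6, 25.4 and 9.89 CPM in the BCL. Section 4 of the ONL fell among the BCL values, and the difference was 1.51 ± 0.34 (adjusted p = 0.000222). Against the GCL, where 1 to 4 UMIs a library gave at most 6.15 CPM, it was 4.01 ± 0.36 (adjusted p = 1.41e-14). The BCL was higher than the GCL by 2.49 ± 0.55 (adjusted p = 0.000207). Of the 3975 exonic bases of Gngt2 in the GENCODE vM39 annotation, 21.9% are shared with Abi3 on the opposite strand. The authors counted on an older GENCODE release, whose gene model of Gngt2 has 1877 exonic bases. How many shared bases that release holds was not determined. The default counting assigns a read in bases shared by different genes to neither. Abi3 itself held 1 UMI in ONL, 1 in BCL and 0 in GCL libraries.

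Gnb3, the beta subunit, stood apart from the other 9 genes. The ONL libraries gave 175, 194, 162 and 106 CPM, the BCL libraries 263, 278, 219 and 262 CPM and the GCL libraries 19.1, 19.5, 26.1 and 15.4 CPM. All 4 BCL values lay above all 4 ONL values, as they did for 22.1% of all genes tested, but the fitted difference did not pass the test (-0.28 ± 0.15, adjusted p = 0.152). The fit scales library sizes by TMM, with factors of 1.11 to 1.14 in BCL and 0.86 to 0.94 in ONL libraries. CPM uses column totals, on which the BCL stands higher beside the ONL than in the fit. With DESeq2-style size factors in edgeR the adjusted p was 0.0428, with Gnb3 higher in the BCL. No other setting passed. The adjusted p was 0.121 by DESeq2, and by edgeR it ran from 0.0735 (without mitochondrially encoded genes) to 0.631 (without section 4). Against the GCL, Gnb3 was higher in the ONL by 3.20 ± 0.20 (adjusted p = 9.41e-21) and in the BCL by 3.49 ± 0.22 (adjusted p = 1.06e-19), the largest of the 10 between these layers.

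Of the UMIs of the 10 genes, Gnb3 gave 7.68 ± 0.90% in ONL, 49.1 ± 9.40% in BCL and 14.4 ± 2.94% in GCL libraries (mean ± SD, n = 4 sections). Its share was lower in all 4 ONL libraries than in any library of the BCL or of the GCL (exact permutation p = 0.0286 for each, two-sided, the smallest possible with 4 against 4, and 0.0286 adjusted over the 2 comparisons). Flipping layers within a section gave p = 0.125 for each by the exact permutation test, again the smallest that 4 pairs allow. The summed ON bipolar markers moved in the same direction between ONL and BCL, from 647 to 6463 CPM with 8 of 8 detected in each, and their part in the Gnb3 level was not tested. Without Gnb3 the other 9 genes summed to 1956 ± 581 CPM in ONL, 273 ± 79.8 in BCL and 120 ± 18.6 in GCL libraries.

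**Figure D3:**
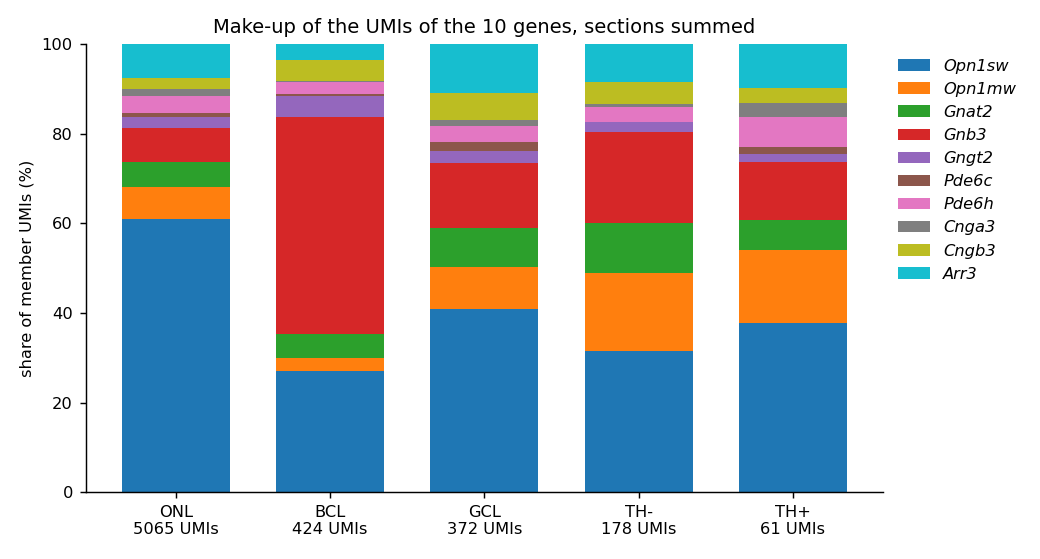
Share of each gene in the UMIs of the 10 genes (vertical axis, percent, stacked to 100), with the UMIs of all sections of a group summed; the UMI total stands under each bar. Opn1sw fills 60.9% of the ONL bar and 27.1% of the BCL bar, while Gnb3 fills 7.58% and 48.3%.

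The phosphodiesterase was represented by a well detected and a sparsely detected gene. Pde6h, the inhibitory gamma subunit, stood at 97.4, 78.8, 100.4 and 41.9 CPM in the ONL, from 0 to 25.4 CPM in the BCL and from 1.71 to 7.49 CPM in the GCL. The ONL was above both without overlap, by 2.91 ± 0.39 (adjusted p = 1.18e-08) and 4.21 ± 0.33 (adjusted p = 2.72e-16). Pde6c, the catalytic subunit, gave 14, 12, 7 and 2 UMIs in ONL sections 1 to 4, 2 UMIs in BCL section 1 and none in the other BCL libraries, and 3, 0, 3 and 2 UMIs in the GCL. It was the least abundant of the 10 per length in the ONL. The ONL exceeded the BCL by 2.81 ± 0.81 (adjusted p = 0.00419, but 0.0589 by DESeq2) and the GCL by 2.43 ± 0.53 (adjusted p = 8.08e-05). The counts alone put the ONL at 6.17 times the BCL, with a 95% exact interval from 1.59 to 53.0 that covers counting error only. Without section 1, which held both BCL UMIs, Pde6c did not pass the filter on low counts and was not tested.

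The channel subunits separated the layers to different degrees. Cnga3, the subunit that forms the cyclic GMP-gated channel, gave 26, 40, 16 and 6 UMIs in the ONL, a single UMI in the BCL and 0, 3, 0 and 2 UMIs in the GCL. The fitted difference was 4.98 ± 0.77 against the BCL (adjusted p = 3.15e-07) and 4.35 ± 0.48 against the GCL (adjusted p = 1.57e-11). From counts the ONL held 31.04 times the BCL level, with an interval from 5.43 to 1240. Without section 4, which held the only BCL UMI, the BCL libraries were all at 0, and against a limit of 3 UMIs over these libraries together the ONL was at least 8.35-fold higher. Without section 2 the fitted difference was 4.28 (adjusted p = 6.40e-05). Cngb3, the modulatory subunit of the same channel, stood at 53.7, 55.3, 70.8 and 32.2 CPM in the ONL and at 41.3, 19.2, 20.3 and 19.8 CPM in the BCL, where section 1 overlapped the ONL. The difference was 1.45 ± 0.35 against the BCL (adjusted p = 0.000540) and 2.86 ± 0.31 against the GCL (adjusted p = 1.27e-11). Between BCL and GCL it was 1.41 ± 0.49 (adjusted p = 0.0178), which fell to 0.72 (adjusted p = 0.345) without section 1, whose BCL library held 8 of the 20 Cngb3 UMIs of that layer.

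Arr3, the cone arrestin that quenches activated opsin, stood at 159, 203, 171 and 103 CPM in the ONL, from 10.3 to 35.6 CPM in the BCL and from 10.5 to 19.98 CPM in the GCL. The ONL was above both without overlap, by 3.46 ± 0.30 (adjusted p = 2.59e-14) and 3.59 ± 0.22 (adjusted p = 8.04e-21). The BCL and GCL values overlapped (0.13 ± 0.48, adjusted p = 0.870).

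**Figure D4:**
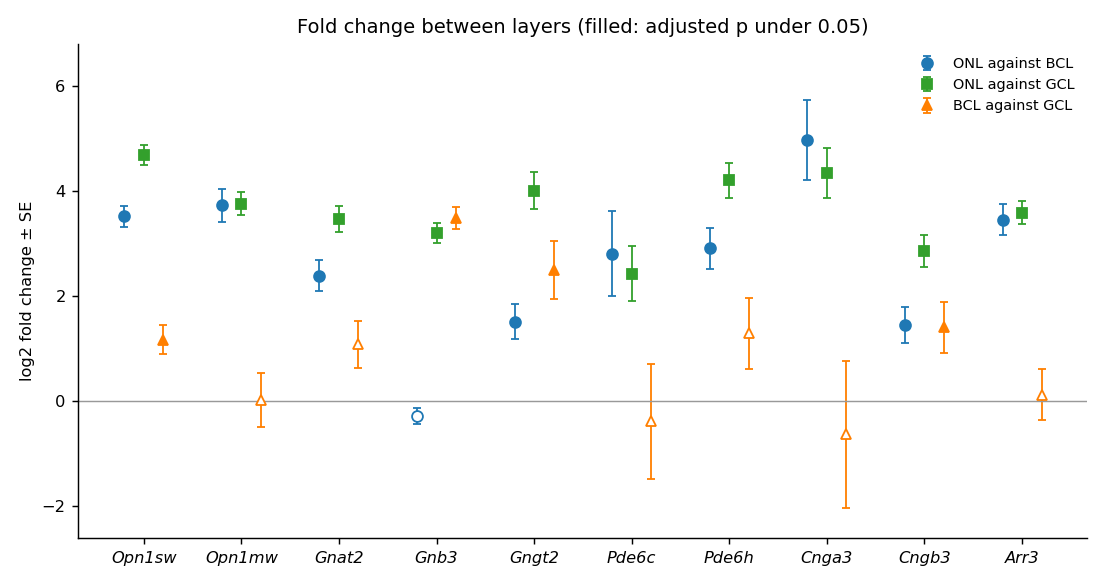
Log2 fold change with its standard error (vertical axis) for each gene between ONL and BCL (circles), ONL and GCL (squares) and BCL and GCL (triangles), each from 4 libraries a layer; filled markers have an adjusted p under 0.05 by edgeR. Values for ONL against GCL run from 2.43 (Pde6c) to 4.68 (Opn1sw), and the open circle of Gnb3 (-0.28) is the only ONL value below 0.

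Over the layers, 6 genes did not overlap between ONL and BCL with the ONL higher (Opn1sw, Opn1mw, Arr3, Gnat2, Pde6h and Cnga3), as did 11.2% of all genes tested. All 10 did so between ONL and GCL, against 22% of all genes. Cnga3 and Pde6c are included although they passed the filter on low counts through their ONL libraries. The 4 that did so between BCL and GCL were Opn1sw, Gnb3, Gngt2 and Cngb3, against 18.7%.

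Compared as CPM per kilobase of the gene model, the ONL levels ran in the order Opn1sw (505 ± 156), Opn1mw (99.5 ± 28.0), Arr3 (67.5 ± 17.7), Gnb3 (60.5 ± 14.3), Gnat2 (37.7 ± 12.3), Gngt2 (29.0 ± 9.51), Cngb3 (11.3 ± 3.36), Pde6h (10.2 ± 3.43), Cnga3 (9.08 ± 3.76) and Pde6c (4.76 ± 1.74), mean ± SD over 4 sections. Only the step from Opn1sw to Opn1mw and that from Gngt2 to Cngb3 separated all libraries of neighbours, and the other 7 neighbours overlapped over the libraries. Within a section, Opn1mw lay above Arr3, Arr3 above Gnb3, Gnb3 above Gnat2 and Cnga3 above Pde6c in 4 of 4 sections, and the remaining 3 neighbours kept their order in 3 of 4. The gene model of Pde6h counts 7846 exonic bases, the longest of the 10, which lowers its value on this scale. In the BCL the order began with Gnb3 (97.1 ± 9.78) and Opn1sw (56.1 ± 22.6), whose ranges overlapped, and in the GCL with Opn1sw (22.4 ± 3.60) and Opn1mw (8.47 ± 2.02), whose ranges did not.

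Section 4 was the lowest ONL library for 10 of the 10 genes. The share of all genes lowest in that library was not determined. In section 4 the 10 genes lay between 38.6% (Pde6c) and 60.2% (Gnb3) of the mean of the other 3 sections, and their summed level was at 51.6%. The 12 rod markers did not share this, at 77475 CPM in section 4 against 64793 to 78599 in the others. The section 4 ONL library was also the shallowest of its layer (310228 UMIs), and the part of depth or of the region drawn was not tested. Without section 4 the ONL remained called above the GCL for 10 genes and above the BCL for 9.

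**Figure D5:**
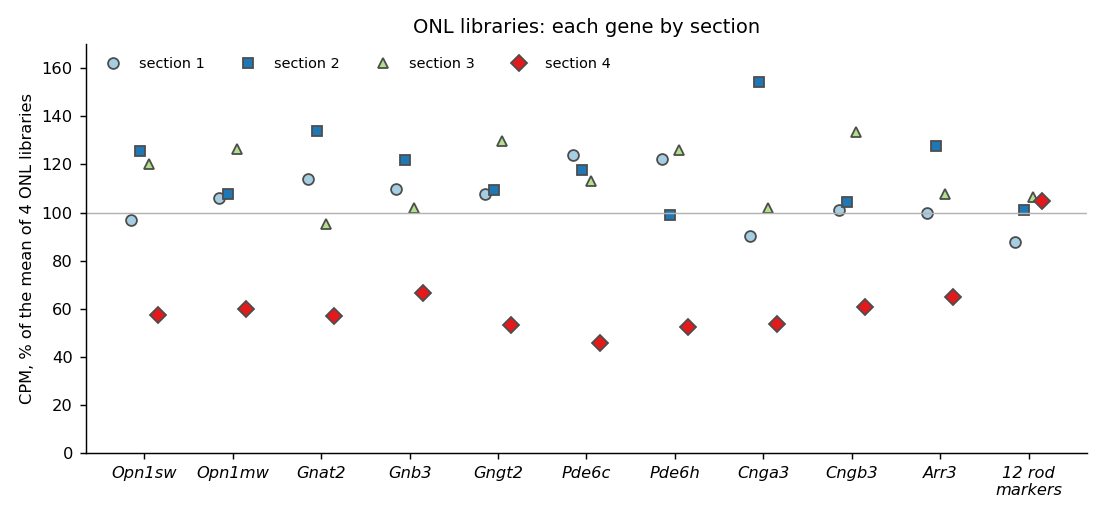
Level of each gene in the 4 ONL libraries as a percentage of their mean (vertical axis, from 0), with section 4 as red diamonds and the sum of 12 rod markers at the right. Section 4 is the lowest point of all 10 genes, while the sum of its rod markers (77475 CPM) lies within the range of the other sections. Single rod genes, which differ in their lowest section, are not drawn.

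The rod counterparts of these genes were set beside them. All 10 rod genes were higher in the ONL than in the BCL and than in the GCL, from Gngt1 (1.86 ± 0.17, adjusted p = 6.78e-14), the rod gamma subunit, to Cnga1 (2.79 ± 0.18, adjusted p = 2.49e-19), the rod channel subunit, for the BCL. The percentages that follow come from summed counts over column totals, without the TMM scaling of the fit, which raises the BCL beside the ONL. The rod genes stood at 17.9 to 34.2% of their ONL level in the BCL and at 7.58 to 17.9% in the GCL. The percentages of the cone genes in the BCL ran from 3.22 to 151%. Cnga3 (3.22%, interval 0.0807 to 18.4%), Opn1mw (9.25%, 4.73 to 16.3%), Opn1sw (10.6%, 8.70 to 12.7%), Arr3 (11.2%, 6.19 to 18.6%), Pde6c (16.2%) and Pde6h (16.2%) lay below the lowest rod gene, and Gnat2 (23.4%) lay within the rod range. Gngt2 (43.6%, 25.8 to 70.2%), Cngb3 (45.7%, 27.0 to 73.7%) and Gnb3 (151%, 127 to 180%) lay above the highest rod gene, although the intervals of Gngt2 and Cngb3 reached into the rod range, as did those of Cnga3, Arr3, Pde6c (1.89 to 63.1%) and Pde6h (7.98 to 29.7%) from the other side. In the GCL the cone genes stood at 4.17% (Opn1sw) to 19.3% (Pde6c) of their ONL level. Differences between the cone and rod lists were not tested.

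Of 10 further genes of the photoresponse, 9 could be tested and 8 were higher in the ONL than in the BCL and than in the GCL. They ranged against the BCL up to Guca1b, an activator of guanylate cyclase (2.78 ± 0.19, adjusted p = 5.42e-18). Slc24a2, a sodium/calcium-potassium exchanger known from cones, stood at 92.5 ± 20.2 CPM in ONL, 149 ± 26.2 in BCL and 451 ± 38.6 in GCL libraries, with -0.37 ± 0.19 against the BCL (adjusted p = 0.123) and -2.13 ± 0.13 against the GCL (adjusted p = 1.73e-20). Guca1a, another cyclase activator, had 6 UMIs in the ONL and 1 in each other layer and was too low to test.

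The genes outside these lists whose profile over the 12 layer libraries lay closest to the median of the 10 were Cdhr1, Pla2r1, Lrguk, Prom1 and Vopp1, with root mean square differences of 0.19, 0.23, 0.23, 0.23 and 0.24 on the log2 scale. Cdhr1, a cadherin of photoreceptor outer segments, stood at 4718 ± 954 CPM in ONL, 1174 ± 349 in BCL and 533 ± 119 in GCL libraries. Prom1, a membrane protein of the outer segment discs, stood at 842 ± 184, 247 ± 62.6 and 93.3 ± 19.4 CPM. Among the 10, Gnat2 was closest to their median (0.37) and Gnb3 farthest (1.26).

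The amacrine libraries were shallower, with 30317 to 87449 UMIs in TH+ and 134394 to 200344 in TH- libraries. The stain used to pick the cells was matched by its transcript, since Th, the tyrosine hydroxylase gene, stood at 475 ± 131 CPM in TH+ and 22.0 ± 15.9 CPM in TH- libraries (mean ± SD, n = 5 sections). Rod markers were present at 32434 ± 10219 CPM in TH+ and 18860 ± 6092 CPM in TH- libraries, and the 6 amacrine markers at 2673 ± 473 and 3416 ± 679 CPM. The 10 cone genes gave 61 UMIs in all TH+ libraries and 178 in all TH- libraries. Their summed level was 204, 172, 329, 368 and 165 CPM in TH+ sections 1 to 5 and 276, 174, 260, 225 and 183 CPM in TH- sections, so the groups overlapped.

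Only Opn1sw, Opn1mw and Gnb3 passed the filter on low counts in this comparison, and 0 of the 3 were called by edgeR, with 0 at an unadjusted p under 0.05, where 0.83% of 6021 genes were called in either direction. DESeq2, which gave 7 of the 10 an adjusted p, called 0 as well. Opn1sw stood at 61.3, 45.7, 141, 130 and 132 CPM in TH+ and at 164, 11.6, 44.6, 49.9 and 91.6 CPM in TH- sections 1 to 5 (log2 fold change 0.37 ± 0.46, adjusted p = 0.899). The log2 fold change was 1.01 without section 1 (adjusted p = 0.623) and 0.08 without section 3 or without section 4 (adjusted p = 0.988 and 0.995). Each value rested on 2 to 25 UMIs, and the highest and lowest of the 10 libraries were both TH-. Opn1mw differed by 0.01 ± 0.58 (adjusted p = 0.9996) and Gnb3 by -0.51 ± 0.60 (adjusted p = 0.892). From counts, the TH+ level of Opn1sw was 1.29 times that of TH- with an interval from 0.757 to 2.13 that covers counting error only. In the same fit 3 of the 10 rod counterparts were called higher in TH+ libraries and 9 had an unadjusted p under 0.05, with log2 fold changes from 0.52 to 0.81 and a median of 0.73. Whether they differed from the cone genes was not tested.

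The other 7 genes did not pass the filter on low counts in the amacrine libraries. Gnat2 gave 4 UMIs in TH+ and 20 in TH-, Arr3 6 and 15, Cngb3 2 and 9, Pde6h 4 and 6, Gngt2 1 and 4, and Cnga3 2 and 1. Pde6c gave 1 UMI in TH+ and 0 of 801567 UMIs in TH-, which allows a level of up to 3.74 CPM.

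The opsin balance in the amacrine libraries rested on 33 opsin UMIs in TH+ and 87 in TH-. The ratio of short- to middle-wave opsin from summed UMIs was 2.30 in TH+ (1.05 to 5.41) and 1.81 in TH- (1.14 to 2.90), beside 8.38 in the ONL of the other sections (7.52 to 9.36). Layers and amacrine cells came from different sections and sequencing runs, so the values are set side by side and were not tested. TH- sections 1 to 5 held 25, 2, 6, 10 and 13 UMIs of Opn1sw beside 6, 2, 11, 10 and 2 of Opn1mw. Short-wave shares were thus 80.6% in section 1 (62.5 to 92.5%) and 35.3% in section 3 (14.2 to 61.7%), intervals that do not overlap, while those of section 2 (6.76 to 93.2%) covered nearly any share. TH+ sections held 3, 4, 6, 6 and 4 UMIs of Opn1sw beside 2, 3, 3, 2 and 0 of Opn1mw.

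Some counts may carry a limit from neighbouring genes. In vM39, 15.5% of the exonic bases of Opn1sw are shared with Calu on the opposite strand, 13.1% of those of Cnga3 with the long noncoding gene Gm69908 and 1.7% of those of Pde6h with Arhgdib. In the older release the authors used, the gene model of Cnga3 has 3957 exonic bases against 6042 in vM39. Calu itself stood at 93.5 to 181 CPM in the ONL, 87.7 to 122 in the BCL and 59.9 to 87.9 in the GCL. Arhgdib had 0 UMIs in ONL and BCL and 18 in the GCL. Under the default counting, reads in such shared bases are assigned to neither gene where the annotation used holds both.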

How the data were processed

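Light-Seq libraries of 4 retinal layer sections (12 libraries) and 5 amacrine cell sections (10 libraries) were used. The authors extracted UMIs with UMI-tools 1.1.1, aligned reads with STAR 2.7.9a to mm39, kept unique alignments, assigned them to GENCODE exons with featureCounts and collapsed UMIs within a gene. The deposited counts are therefore whole UMI numbers per gene without normalization, and the authors removed 2 ribosomal RNA genes beforehand. The methods give featureCounts at its defaults, which ignore strand and leave a read over exons of several genes unassigned.

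Counts were tested with the quasi-likelihood test of edgeR 4.0.16 (R 4.3.3), with TMM scaling, filterByExpr (min.count 3, min.total.count 10), and Benjamini-Hochberg adjustment over all genes at 0.05. The 12 layer libraries shared a fit, as did the 10 amacrine libraries. Standard errors are the log2 fold change divided by the square root of F. CPM used the column total, and the prior count of log2 CPM was 2. Intervals (95%) are exact and cover counting error only. Shares were compared with scipy 1.17.1. The procedure was tested on simulated data. Gene lengths came from the deposited mouse 3T3 tables, whose lengths follow the authors' annotation.

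Libraries of the same number come from the same section. After removal of group means their correlation was 0.0116 to 0.0493 over 12 layer pairs and 0.0287 to 0.257 over 5 amacrine pairs (different sections, -0.0609 to 0.0431 and -0.117 to 0.0418). The genes, lists and motifs were chosen with earlier results of these data known, and the text names the 10 genes, at most 4 of each reference list and the 5 closest profiles. Alternatives were DESeq2 1.42.0, DESeq2-style size factors, no filter, the default filter of edgeR, a block for the section, removal of mitochondrially encoded genes, length-corrected or pooled shares, other library sizes and each section left out. Promoter windows are from RefSeq (GRCm38.p6). Human tables and the second run of the mixed culture were not used here. A result that falls under the rule for named genes is not reported here.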

Additional observations from a re-analysis of the deposited data

Results flagged for a closer look

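In 64 groups of 4 or 5 libraries the gap between the most extreme library and its neighbour was compared with the group's range, and 7 exceeded Dixon's 95% critical value (0.829 for 4 libraries, 0.71 for 5). Chance flags about 1 in 20 groups of continuous values, a rate that does not hold for sparse counts. Of the 7, 5 rested on 1 or 2 UMIs in all, in groups whose other libraries were at 0, where the gap equals the range by construction. They were Pde6c at 10.3 CPM in a BCL library and at 20.4 CPM in a TH+ library, Cnga3 at 4.94 CPM in a BCL library and at 7.05 CPM in a TH- library, and Gngt2 at 11.4 CPM in a TH+ library. Pde6c in ONL section 4 was low at 6.45 CPM against 15.98 to 17.5 CPM in the other ONL libraries, a value of 2 UMIs. Cngb3 in BCL section 1 was high at 41.3 CPM (8 UMIs) against 19.2 to 20.3 CPM in the other BCL libraries.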

How the results depend on the processing

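Of 322 alternative values of 33 single-gene fold changes, 305 kept direction and side of the threshold, 2 lost the call, 5 gained it and 10 changed sign, none of the last past the threshold. A further 11 had no value because the gene was not tested, for Pde6c without section 1, Pde6c and Cnga3 under the default filter of edgeR, and Opn1mw and Gnb3 in TH+ against TH- under that filter. Genes of the 10 called higher in the ONL thus numbered 8 without section 1 and 7 under that filter against the BCL, and 9 and 8 against the GCL. The call was lost for Pde6c in ONL against BCL under DESeq2 and for Cngb3 in BCL against GCL without section 1. It was gained for Gnb3 in ONL against BCL (-0.38) with DESeq2-style size factors, and for Gnat2 in BCL against GCL with those factors (1.12), the stricter default of edgeR (1.13), a block for the section (1.1004) and without section 3 (1.41). The block changed no other call on the 10 genes. Signs changed in BCL against GCL for Arr3 (0.13, but -0.23 without section 3 and up to 0.41), Cnga3 (-0.63, but 0.48 without section 2, and -2.75 without section 4, where the BCL is at 0 and the prior count sets the value), Pde6c (0.23 and 0.03 without sections 3 and 4) and Opn1mw (-0.079 without a filter, -0.33 and -0.13 without sections 1 and 3, up to 0.46), and in TH+ against TH- for Opn1mw (-0.14 without a filter, -0.02 and -0.15 without sections 1 and 2, up to 0.12). The cause was not tested. Genes called between TH+ and TH- numbered 50, with 148 under the section block and 29 to 73 with a section left out (29 without section 3, 31 without section 5). Between ONL and BCL, edgeR called 2096 genes higher and 2056 lower, DESeq2 1391 and 2064. The ONL short-wave share per gene length was 83.4%, since the longer gene is divided by more. The Gnb3 share differences (-41.4 and -6.76 percentage points, ONL minus BCL and minus GCL) had p = 0.0286 by exact permutation and 0.125 by exact permutation within sections, and ranged from -44.8 to -37.8 and from -8.12 to -5.57 with a section left out, where 3 against 3 cannot go below p = 0.1 by exact permutation. The difference in short-wave share between ONL and BCL was -0.31 percentage points and ranged from -1.96 to 1.75 with a section left out (1.75 and 0.44 without sections 2 and 3). Depth limits the TH+ libraries most (30317 to 87449 UMIs), then the TH- (134394 to 200344) and BCL libraries (193869 to 208437).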

Other observations

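Set against the rod markers of the same library, the 10 cone genes summed to 2.88 ± 0.87% of the 12 rod markers in ONL, 3.01 ± 0.60% in BCL and 2.08 ± 0.28% in GCL libraries (mean ± SD, n = 4 sections). Without Gnb3 the values were 2.67 ± 0.81%, 1.52 ± 0.37% and 1.78 ± 0.29%. The 4 ONL sections gave 3.30, 3.48, 3.16 and 1.60%, section 4 being the lowest. In the amacrine libraries the 10 genes summed to 1.28 ± 0.42% of the rod markers in TH- and 0.80 ± 0.26% in TH+ libraries (n = 5 sections), and without Gnb3 to 0.96 ± 0.12% and 0.70 ± 0.18%. These ratios were not tested.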
